A study of Mus musculus with 18 samples.

Results

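The 10 genes described here are a hand-picked set linked to the FOXO transcription factors: Foxo1, Foxo3, Irs2, Pik3ip1, Sesn1, Sesn3, Ccng2, Klhl24, Bcl6 and Txnip. They were found by gene symbol among 19938 genes, each had exactly 1 probe set with a single symbol, and all 10 lay above 6.07 on the log2 scale in every group, the level under which 95% of 1196 olfactory and vomeronasal receptor genes lay. The set was chosen by their log2 levels over the 6 groups, with the lower level at 5 h of tunicamycin and the response at 12 h in view, so every change in these 10 genes, with doxycycline too, is given as a description without a test. The cells were mouse B16 F10.9-4 cells, a melanoma line, grown in DMEM with serum. Tunicamycin blocks N-linked glycosylation and so causes endoplasmic reticulum stress. In all cultures given doxycycline the drug was added first, to switch on LIP, the short isoform of C/EBPβ. Cells got either vehicle or doxycycline and were harvested before tunicamycin, or after 5 or 12 h of it, which makes 6 groups of 3 arrays. Each group held 1 array from each of 3 independent experiments. Vehicle arrays at 5 and 12 h, and doxycycline arrays of cells that cannot make LIP, were not analysed here. Tunicamycin and time in culture therefore cannot be told apart, and neither can LIP and doxycycline itself.

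FOXO factors are forkhead proteins that act in the nucleus when insulin and growth factor signalling is low. The kinase AKT, downstream of PI3K, phosphorylates them, and 14-3-3 proteins then hold them in the cytoplasm. Genes that FOXO factors are known to switch on slow the cell cycle, restrain mTORC1, raise insulin receptor signalling as feedback and handle oxidative stress. FOXO activity is set mostly on the protein, so the level of Foxo1 or Foxo3 RNA is not a measure of it.

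Promoter windows reaching from 250 bases before to 50 bases after a start site were available from RefSeq (GRCm38.p6) for 9 of the 10 genes, all but Klhl24. There were 11 such windows, since Bcl6 and Sesn1 each had a further one inside the gene. The only window of Pik3ip1, from chr11:3330481, also lay inside the gene, which begins at 3319241. The sequence at that outer start of Pik3ip1 was therefore not searched, though the gene counts among the 9. Ccng2 and Txnip are printed because they moved in opposite directions at 5 h and each holds a forkhead-type motif before its start. The 250 bases before the start are given 5′ to 3′ on the gene's strand, with motif letters in capitals.
Ccng2, chr5:93267323-93267572, plus strand: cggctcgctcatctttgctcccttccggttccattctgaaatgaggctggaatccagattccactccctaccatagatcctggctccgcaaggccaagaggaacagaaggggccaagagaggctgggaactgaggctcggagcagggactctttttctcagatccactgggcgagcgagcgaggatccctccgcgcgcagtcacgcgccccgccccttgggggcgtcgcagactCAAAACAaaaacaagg
Txnip, chr3:96557707-96557956, plus strand: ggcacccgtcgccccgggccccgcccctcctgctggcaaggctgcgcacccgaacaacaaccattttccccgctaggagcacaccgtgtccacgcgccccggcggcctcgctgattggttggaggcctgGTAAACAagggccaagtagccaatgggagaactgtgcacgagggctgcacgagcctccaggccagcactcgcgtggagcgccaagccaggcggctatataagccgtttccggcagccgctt
The capitals in Ccng2 are CAAAACA, letters of the insulin response element, whose first base is at -16. Those in Txnip are GTAAACA, the core letters bound by FOXO and other forkhead factors, with the first base at -121. Both strands were searched and the matches did not overlap another motif. GTAAACA was found in 2 of the 9 genes, Txnip and Sesn1, where it lay after the start, and in 4.05% of 27025 genes with such a window. CAAAACA was found in 2 of the 9 genes, Ccng2 and Irs2, and in 7.2% of the genes. The E-box letters CACGTG were in Bcl6 and Irs2, and in 8.09% of the genes. The C/EBP letters TTGCNNAA and the C/EBP-ATF letters TGATGNAA were in 0 of the 9 genes, against 12.2 and 4.51% of the genes. These matches describe letters only.

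Both treatments left their mark on the arrays. Cebpb, the gene that encodes LIP, stood at 9.26, 9.26 and 9.48 in vehicle and at 11.02, 11.27 and 11.24 with doxycycline alone. Ddit3, which encodes the stress factor CHOP, rose by 1.17 at 5 h and 2.89 at 12 h of tunicamycin (limma's adjusted p = 5.9e-08 and 1.34e-14). The doxycycline difference in Ddit3 was -0.35 at 0 h (adjusted p = 0.0108), -0.20 at 5 h (0.144) and -0.28 at 12 h (0.0279). Tunicamycin alone raised Cebpb by 0.96 at 12 h (adjusted p = 4.8e-09). The doxycycline difference in Cebpb was 1.84 at 0 h and 1.22 at 12 h. All 8 melanocyte markers were above the receptor level. Of the markers of other cells, 5 of 6 fibroblast genes, 2 of 5 measured immune genes, 1 of 4 endothelial genes and 0 of 4 keratinocyte genes exceeded it. Replicate arrays correlated over genes at Pearson's r of 0.997 to 0.999. The mean of the 8 melanocyte markers was lower with doxycycline than without it before tunicamycin (11.4 against 11.8), at 5 h (11.4 against 11.9) and at 12 h (11.1 against 11.7). Of the 18 arrays, that of experiment 2 at 5 h of tunicamycin without doxycycline had the largest residual spread (SD 0.113).

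**Figure D1:**
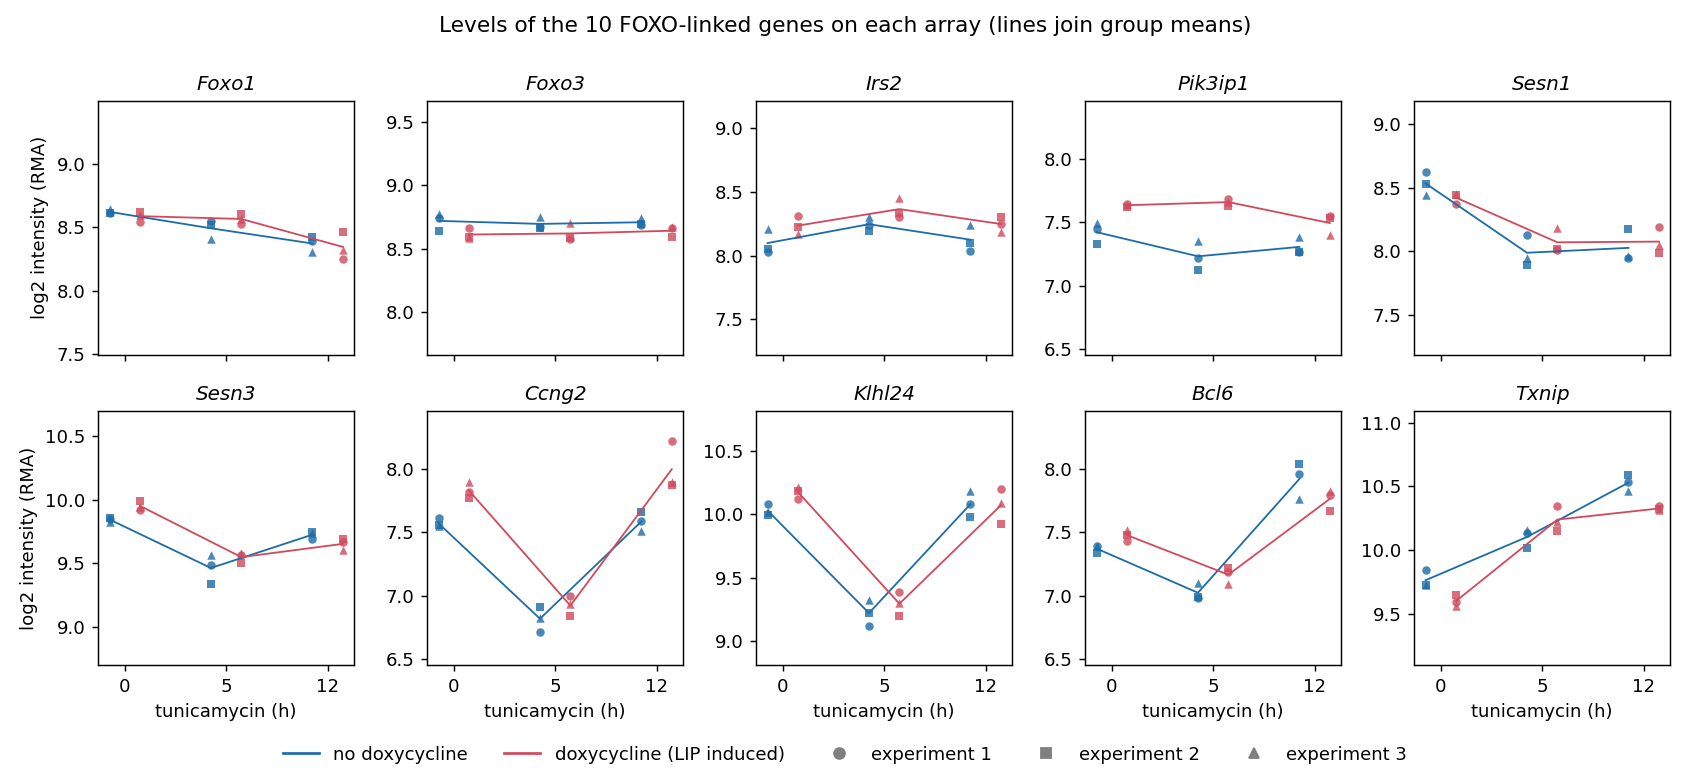
Log2 intensity of each of the 10 genes against hours of tunicamycin (evenly spaced categories), 1 marker per array, with lines joining the means of groups without doxycycline (blue) and with it (red). Each panel spans the same log2 range. Without doxycycline Ccng2 and Klhl24 are low at 5 h and at the vehicle level at 12 h, Bcl6 is low at 5 h and high at 12 h, Sesn1 is low at both times, and the mean of Txnip is 9.76 in vehicle and 10.53 at 12 h.

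At 5 h of tunicamycin the 10 genes did not move as one. Compared with vehicle 8 were lower and 2 higher, with a median change of -0.27 on the log2 scale against 0.02 over all genes. In 6 genes (Foxo1, Sesn1, Sesn3, Ccng2, Klhl24 and Bcl6) all 3 tunicamycin arrays lay below all 3 vehicle arrays, and in 1, Txnip, above them. Over all genes 14.5% lay below in this way and 13.4% above. At 12 h 5 were higher and 5 lower than vehicle, with a median of 0.00; the arrays of Bcl6 and Txnip lay above vehicle and those of Foxo1, Sesn1 and Sesn3 below, where 17.1% of all genes lay above and 22% below. Because this contrast chose the genes, nothing is read from those counts.

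Of the factors themselves, Foxo1 was lower than vehicle at both times of tunicamycin and Foxo3 changed little. Foxo1, the factor best known for insulin-controlled transcription, stood at 8.61, 8.61 and 8.64 in vehicle. It stood at 8.55, 8.52 and 8.41 after 5 h of tunicamycin and at 8.39, 8.42 and 8.31 after 12 h. The arrays of both times were all below vehicle and overlapped each other, with changes of -0.13 at 5 h and -0.25 at 12 h, each ± 0.0557 (SE). With doxycycline the 5 h arrays overlapped those of doxycycline alone (change -0.02) and the 12 h arrays were again below (-0.24). Foxo3, a factor known for stress and atrophy programmes, ranged only from 8.58 to 8.78 over the 18 arrays. Its change from vehicle was -0.02 at 5 h and -0.01 at 12 h, each with an SE of 0.0511; the sign at 5 h turned to 0.00417 with quantile normalization repeated and to 0.00899 with array weights.

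Of the genes that feed into the pathway, Irs2 and Pik3ip1 showed different patterns. Irs2 encodes an insulin receptor substrate that passes the receptor's signal to PI3K. Its level was 8.03, 8.06 and 8.21 in vehicle, and 8.24, 8.19 and 8.31 after 5 h of tunicamycin, so the groups overlapped (change 0.15 ± 0.0647, SE). By 12 h it was 8.04, 8.10 and 8.24, a change of 0.03. Under doxycycline the changes were 0.13 and 0.01. Irs2 was thus the other gene, beside Txnip, with a higher mean at 5 h.

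Pik3ip1 encodes a membrane protein that binds PI3K and lowers its activity. It stood at 7.45, 7.33 and 7.49 in vehicle. After tunicamycin it was 7.22, 7.13 and 7.35 at 5 h and 7.27, 7.27 and 7.39 at 12 h, overlapping with vehicle at both times. With doxycycline it was 7.65, 7.62 and 7.64 at 0 h, 7.69, 7.63 and 7.66 at 5 h and 7.55, 7.54 and 7.40 at 12 h. The doxycycline arrays were above those without it at each time. The change over the first 5 h of tunicamycin was -0.19 ± 0.0616 (SE) without doxycycline and 0.02 ± 0.0616 (SE) with it, and its 12 h change was -0.12 without and -0.14 with doxycycline, where all 3 arrays at 12 h were below those at 0 h. The 5 h value without doxycycline ran from -0.25 to -0.11 over 29 alternative analyses (-0.11 with array weights), and the difference between the arms was not tested.

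Sestrins sense amino acids and stress and restrain mTORC1 through the GATOR complexes. Sesn1 stood at 8.62, 8.53 and 8.45 in vehicle. It was at 8.13, 7.89 and 7.94 after 5 h of tunicamycin and at 7.95, 8.17 and 7.96 after 12 h. All 6 tunicamycin arrays were below the 3 vehicle arrays, with changes of -0.55 ± 0.0774 and -0.51 ± 0.0774 (SE), which are levels 1.46-fold and 1.42-fold lower. With doxycycline it went from 8.37, 8.45 and 8.45 to 8.01, 8.02 and 8.18 at 5 h (-0.35) and to 8.19, 7.98 and 8.05 at 12 h (-0.35). The 5 and 12 h arrays overlapped in both arms, with differences of 0.04 and 0.01.

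Sesn3 was lower at 5 h and closer to vehicle at 12 h. It was 9.85, 9.86 and 9.83 in vehicle, 9.48, 9.34 and 9.56 at 5 h and 9.69, 9.75 and 9.74 at 12 h. The 3 groups did not overlap: the change from vehicle was -0.38 ± 0.0525 (SE) at 5 h and -0.12 ± 0.0525 (SE) at 12 h. With doxycycline it went from 9.92, 9.99 and 9.94 to 9.56, 9.50 and 9.58 at 5 h (-0.40) and 9.67, 9.69 and 9.60 at 12 h (-0.30).

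Sesn2, the family's other member and a known target of ATF4, was not among the 10 genes and was tested. It rose where Sesn1 and Sesn3 were low. Its level was 9.16, 9.05 and 9.16 in vehicle, 9.69, 9.59 and 9.83 at 5 h and 10.43, 10.54 and 10.42 at 12 h. The rises were 0.58 ± 0.0837 (SE, limma's adjusted p = 0.000225) and 1.34 ± 0.0837 (SE, adjusted p = 4.91e-10), each higher in 3 of 3 experiments. Doxycycline alone also raised it, by 0.40 (adjusted p = 0.00343), and at 12 h of tunicamycin the doxycycline difference was 0.02 (adjusted p = 0.928). The call with doxycycline alone was lost with an experiment left out (up to 0.0883).

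Of the 10 genes, Klhl24 and Ccng2 had the most negative changes at 5 h. Klhl24 encodes a kelch-repeat adaptor of a CUL3 ubiquitin ligase. It stood at 10.08, 9.99 and 10.02 in vehicle. After 5 h of tunicamycin it was at 9.12, 9.22 and 9.32, and after 12 h at 10.08, 9.98 and 10.18. The 5 h arrays were below every vehicle array and the 12 h arrays overlapped vehicle. The 5 h change of -0.81 ± 0.0725 (SE), a level 1.75-fold lower, was rank 4 from the lowest of 19938 genes. The 12 h change was 0.05 ± 0.0725 (SE). With doxycycline it went from 10.12, 10.18 and 10.22 to 9.38, 9.20 and 9.30 at 5 h (-0.88, also rank 4) and 10.20, 9.92 and 10.08 at 12 h (-0.10). The lower level at 5 h helped choose the genes, so these ranks and those of Ccng2 below are descriptions only.

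Ccng2 encodes cyclin G2, an unconventional cyclin that is high in resting cells and slows cell cycle entry. It stood at 7.61, 7.56 and 7.54 in vehicle. It was 6.72, 6.91 and 6.83 after 5 h of tunicamycin and 7.58, 7.66 and 7.51 after 12 h. All 3 arrays at 5 h were below vehicle, and those at 12 h overlapped it. The 5 h change was -0.75 ± 0.0779 (SE), a level 1.68-fold lower and rank 5 from the lowest, and the 12 h change was 0.01. With doxycycline it went from 7.82, 7.77 and 7.90 to 6.99, 6.84 and 6.94 at 5 h (-0.91, rank 3), then to 8.22, 7.87 and 7.90 at 12 h (0.17). The difference from 5 to 12 h was 0.77 without doxycycline and 1.07 with it. Its relative Ccng1, which encodes cyclin G1, a p53 target, fell by 0.15 at 5 h (adjusted p = 0.0367) and 0.18 at 12 h (adjusted p = 0.00316). The 5 h call of Ccng1 was lost without any 1 of the 6 arrays compared (adjusted p up to 0.136) and with only the groups compared. Its 12 h call was lost with an experiment left out (0.0724).

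Bcl6 encodes a transcriptional repressor that FOXO factors are known to induce. It stood at 7.39, 7.33 and 7.39 in vehicle. It was 6.98, 6.99 and 7.10 after 5 h of tunicamycin and 7.96, 8.03 and 7.76 after 12 h. The 5 h arrays were all below vehicle and the 12 h arrays all above. The changes from vehicle were -0.35 ± 0.0648 and 0.55 ± 0.0648 (SE), and the 12 h level was 0.90, or 1.86-fold, above that at 5 h. With doxycycline it went from 7.43, 7.48 and 7.52 to 7.18, 7.22 and 7.09 at 5 h (-0.31) and to 7.79, 7.67 and 7.82 at 12 h (0.29).

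Txnip encodes an arrestin-like protein that binds thioredoxin and lowers glucose uptake. It was higher at both times. Its level was 9.84, 9.72 and 9.73 in vehicle, 10.14, 10.01 and 10.16 after 5 h and 10.54, 10.59 and 10.46 after 12 h. The 3 groups did not overlap, with changes from vehicle of 0.34 ± 0.0576 and 0.77 ± 0.0576 (SE), the latter 1.70-fold. With doxycycline it went from 9.59, 9.64 and 9.56 to 10.34, 10.15 and 10.22 at 5 h (0.64) and 10.35, 10.32 and 10.32 at 12 h (0.73). Under doxycycline the arrays at 5 and 12 h overlapped.

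Txnip's relatives among the arrestin-like genes were tested. Arrdc3, a regulator of receptor trafficking, rose by 0.39 at 5 h (adjusted p = 0.0111) and 0.33 at 12 h (adjusted p = 0.0105). Arrdc1 stood at -0.23 at 5 h (adjusted p = 0.0633) and fell by 0.35 at 12 h (adjusted p = 0.00121). Arrdc2 (0.08 and -0.09; adjusted p = 0.423 and 0.237) and Arrdc4 (0.02 and -0.07; adjusted p = 0.886 and 0.515) did not pass, and Arrdc4, at 5.41 in vehicle, lay below the receptor level of 6.07. The 5 h call of Arrdc3 was lost with only the groups compared and without the vehicle array of experiment 1 or the tunicamycin array of experiment 1 or 3 (adjusted p up to 0.0744), and its 12 h call without the vehicle array of experiment 1 or the tunicamycin array of experiment 2 (up to 0.0785). Without experiment 1 its 5 h change was 0.21 (0.297), and without experiment 3 the 12 h change of Arrdc1 was -0.23 (0.0692).

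**Figure D2:**
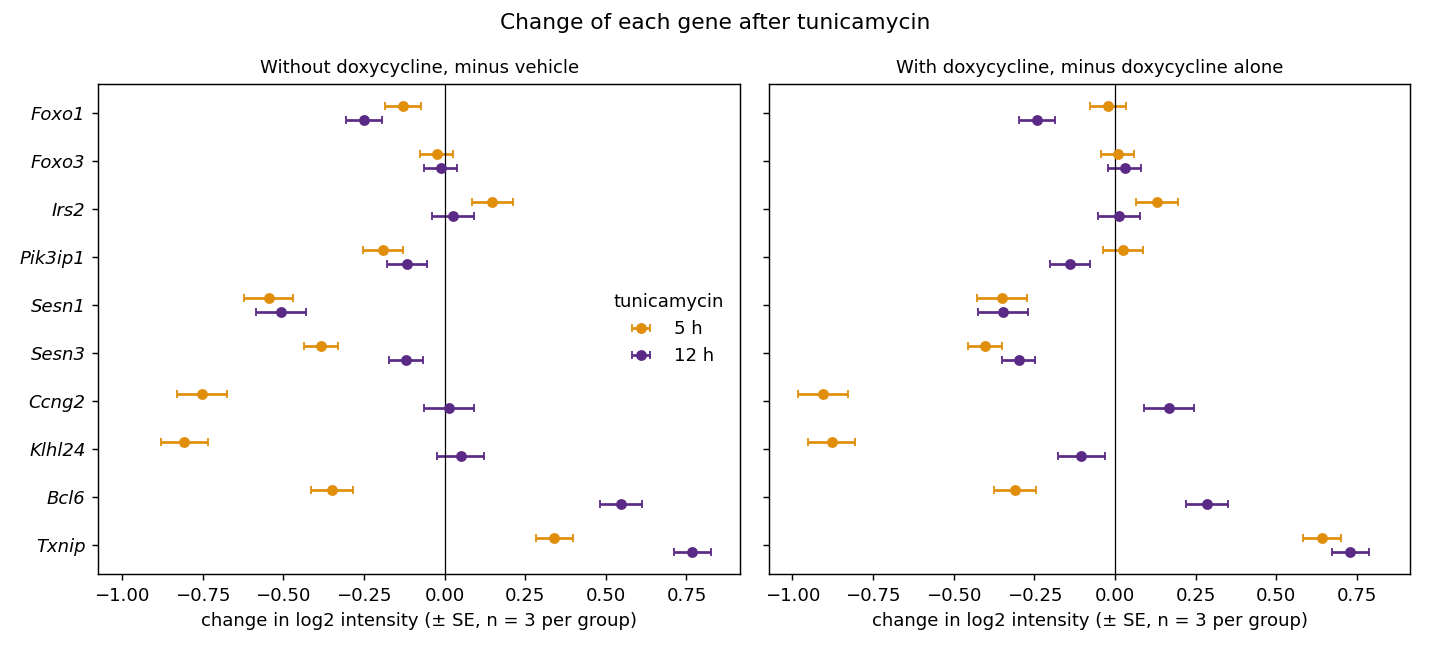
Change in log2 intensity of each gene after 5 h (orange) and 12 h (purple) of tunicamycin, relative to vehicle (left) or to doxycycline alone (right); points are differences of group means and bars are ± SE from the fit, n = 3 arrays per group. Klhl24 and Ccng2 are farthest to the left at 5 h in both panels, and Txnip is to the right of 0 at both times.

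Differences between arrays with and without doxycycline are taken between the same groups that chose the genes, so they too are described without a test. Pik3ip1 was higher with doxycycline at each time, and its arrays did not overlap: the difference was 0.21 at 0 h, 0.43 at 5 h of tunicamycin, which is 1.34-fold, and 0.19 at 12 h, each ± 0.0616 (SE). The 5 h group without doxycycline, from which the 0.43 is taken, is the lowest of the 6 groups for this gene. Ccng2 was higher without overlap at 0 h, by 0.26, and at 12 h, by 0.41 or 1.33-fold, each ± 0.0779 (SE). At 5 h its arrays overlapped and the difference was 0.10. Txnip was lower without overlap at 0 h (-0.16) and at 12 h (-0.20), each ± 0.0576 (SE), and at 5 h it stood at 0.14 with overlap.

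At 0 h the arrays with doxycycline lay above those without it in 5 of the 10 genes, Pik3ip1, Sesn3 (0.11), Ccng2, Klhl24 (0.15) and Bcl6 (0.11), and below them in 1, Txnip. Over all genes 17.7% lay above and 16.5% below. At 5 h 1 gene, Pik3ip1, lay above and 0 below, where 12.8% of all genes lay above and 11.4% below. At 12 h 2 lay above, Pik3ip1 and Ccng2, and 3 below, Foxo3 (-0.07), Sesn3 (-0.07) and Txnip, where 12.8% lay above and 13.4% below. Nothing is read from these counts about the set. The median doxycycline difference was 0.11, 0.09 and -0.02 at the 3 times, against 0.02, -0.01 and -0.0032 over all genes. In Bcl6 at 12 h the arrays overlapped and the difference of -0.16 ranged from -0.26 without experiment 3 to -0.05 without experiment 2. The melanocyte markers were lower with doxycycline at the same times, and their part in these differences was not tested.

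**Figure D3:**
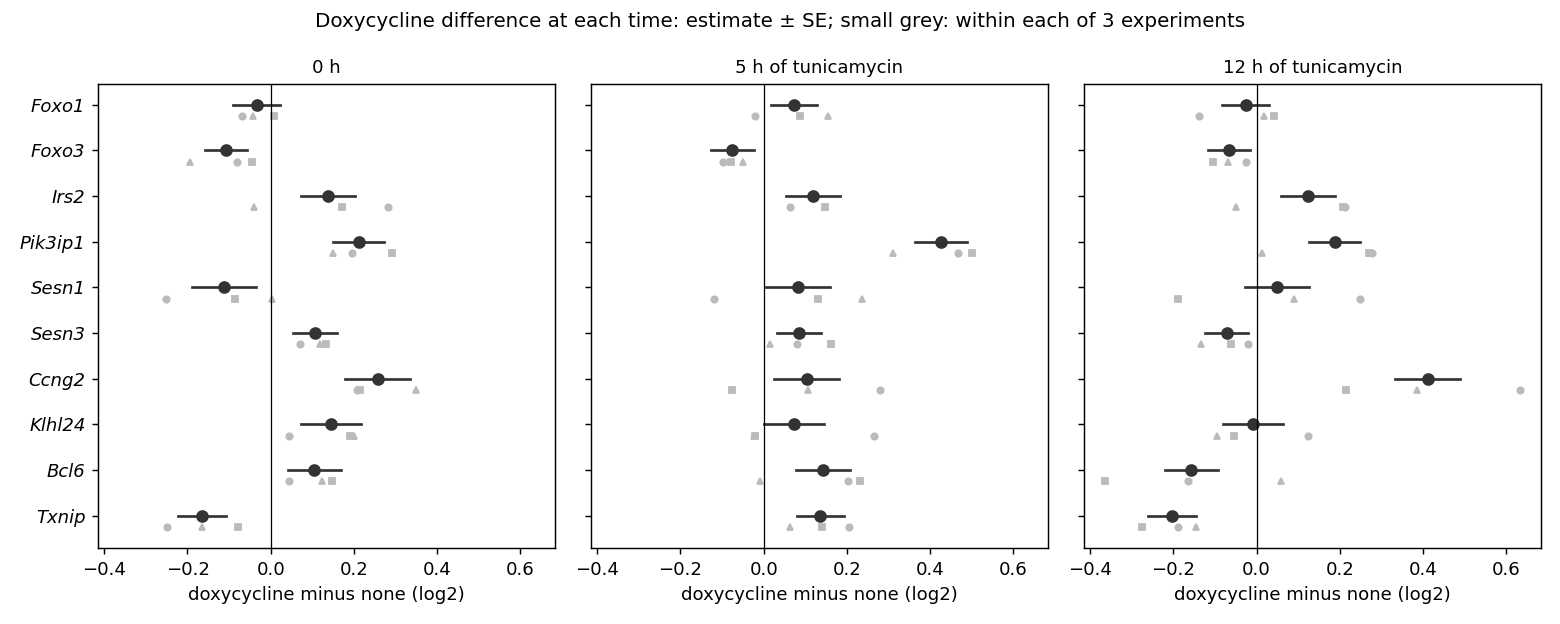
Difference between arrays with and without doxycycline (log2) for each gene at 0 h and at 5 and 12 h of tunicamycin; large points are estimates, bars are ± SE from the fit, and small grey markers are the differences within each of the 3 experiments. Pik3ip1 is to the right of 0 in each panel, Ccng2 is farthest to the right at 0 and 12 h, and Txnip lies at -0.20 at 12 h.

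The 10 genes shared a pattern only in part. Over the 6 group means, Pearson's r among the 45 pairs of genes ran from -0.85 (Foxo3 and Pik3ip1) to 0.95 (Ccng2 and Klhl24), with a median of 0.03. The group means of Foxo3 spanned only 0.11, beside an SD within groups of 0.05, so little is read from its r. The next highest pairs were Sesn3 with Klhl24 (0.85) and Sesn1 with Sesn3 (0.83), and Sesn1 and Txnip stood at -0.85. These are descriptions over 6 points that share arrays, and the low level at 5 h is what chose several of the genes.

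Genes with the most similar pattern over the 6 group means were sought among 3156 named genes whose group means spanned at least 0.5, for the 5 genes that did so themselves. For Ccng2 they were Klf12, a Krüppel-like repressor (r = 0.986), Foxn3, a forkhead repressor (0.978), and Fbxl20, an F-box protein (0.969). For Klhl24 they were Narf (0.970), Ccng2 (0.952) and Klf12 (0.946). Klf12 itself changed by -1.10 at 5 h and -0.17 at 12 h. Bcl6 was closest to Cnnm2 (0.992), Stau2 (0.983) and Mfsd6 (0.983), and Sesn1 to Pfkl (0.970), Rdm1 (0.967) and Sestd1 (0.959). Txnip was closest to Nfkb2, an NF-κB subunit (0.998), Zfp708 (0.995) and Zfp605 (0.991). Each r is among the highest of 3156 values taken over 6 points, so its size owes much to the search. Shared control was not tested.

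The wider pathway was read from 5 lists with 134 further genes, of which 128 were measured and tested in each contrast. The lists were chosen with earlier results of these data known. The share over all genes also counts 6333 genes whose means lay below the receptor level in every group. Nothing is therefore read, in any contrast, from a share of calls in the lists above that of all genes. At 5 h of tunicamycin 9 of the 128 rose and 15 fell, 18.8% in all, where 9.02% of all genes changed; the median was -0.02. With array medians set equal 7 rose and 21 fell, and the count was 15 with only the groups compared and 43 with array weights. It was 12 without experiment 1 and 8 without experiment 3, and 12 of the 24 calls held in every alternative that kept all 3 experiments.

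Among 45 other FOXO-linked targets 2 rose and 6 fell at 5 h. Nfil3, a repressor of the bZIP family, rose by 0.62 (adjusted p = 2.14e-06) and Gadd45b, a stress sensor, by 0.47 (0.00043). Bnip3, a mitophagy receptor, fell by 0.69 (3.54e-05), Bcl2l11, the pro-apoptotic BIM, by 0.51 (0.00152), and Mxi1, a MYC antagonist, by 0.40 (4.07e-05). Each of these 5 calls held without any single array. That of Bcl2l11 was lost with an experiment left out (0.0938).

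In the PI3K, AKT and mTOR cascade 1 of 29 genes rose and 5 fell at 5 h. Ddit4 (REDD1), an inhibitor of mTORC1, rose by 0.54 (adjusted p = 6.25e-06). The AKT phosphatases Phlpp2 and Phlpp1 fell by 0.31 (0.000734) and 0.28 (0.0038). The call of Phlpp1 was lost with an experiment left out (up to 0.139). The PI3K subunit gene Pik3r2 fell by 0.28 (0.0248, and up to 0.102 without any 1 of 5 arrays). Of 25 direct regulators of FOXO proteins 1 rose, Cdk2 (0.16, adjusted p = 0.0344; up to 0.112 without any 1 of 5 arrays, and lost with only the groups compared and with array medians set equal), and no other passed. Of 26 relatives and partners 5 rose and 3 fell. Sesn2, Klhl21 (0.44, adjusted p = 0.000234) and Arrdc3 rose most, and Castor1 (-0.27, 0.0472), Depdc5 (-0.24, 0.0191) and Ccng1 fell. The calls of these 3 genes that fell were each lost without 1 of several arrays (up to 0.217, 0.0791 and 0.136). Castor1 and the GATOR subunit gene Depdc5 belong to the amino acid sensing arm above mTORC1. In the same arm other GATOR subunit genes, Mios (0.32, 0.00502) and Nprl3 (0.24, 0.0221), rose. Both calls were lost with only the groups compared. That of Nprl3 was also lost with array medians set equal and without 1 of several arrays (up to 0.105).

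Foxo4, the third FOXO factor of most tissues, fell by 0.22 at 5 h (adjusted p = 0.0219) and by 0.17 at 12 h (0.0353), from 8.91, 8.86 and 8.84 in vehicle to 8.65, 8.69 and 8.61 and to 8.65, 8.72 and 8.74. The arrays of both times lay below vehicle. Its 5 h call was lost without the vehicle array of experiment 1 or 2 or the tunicamycin array of experiment 1 or 3 (up to 0.0946). The 12 h call was lost with quantile normalization repeated, with a variance trend, and without any vehicle array or the tunicamycin array of experiment 1 or 2 (up to 0.142). Foxo6 stood at 6.03 in vehicle, just below the receptor level, and did not pass (0.07 and -0.07; adjusted p = 0.553 and 0.551). Foxm1, the forkhead factor of dividing cells that FOXO factors oppose, fell by 0.35 at 12 h (8.23e-06).

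**Figure D4:**
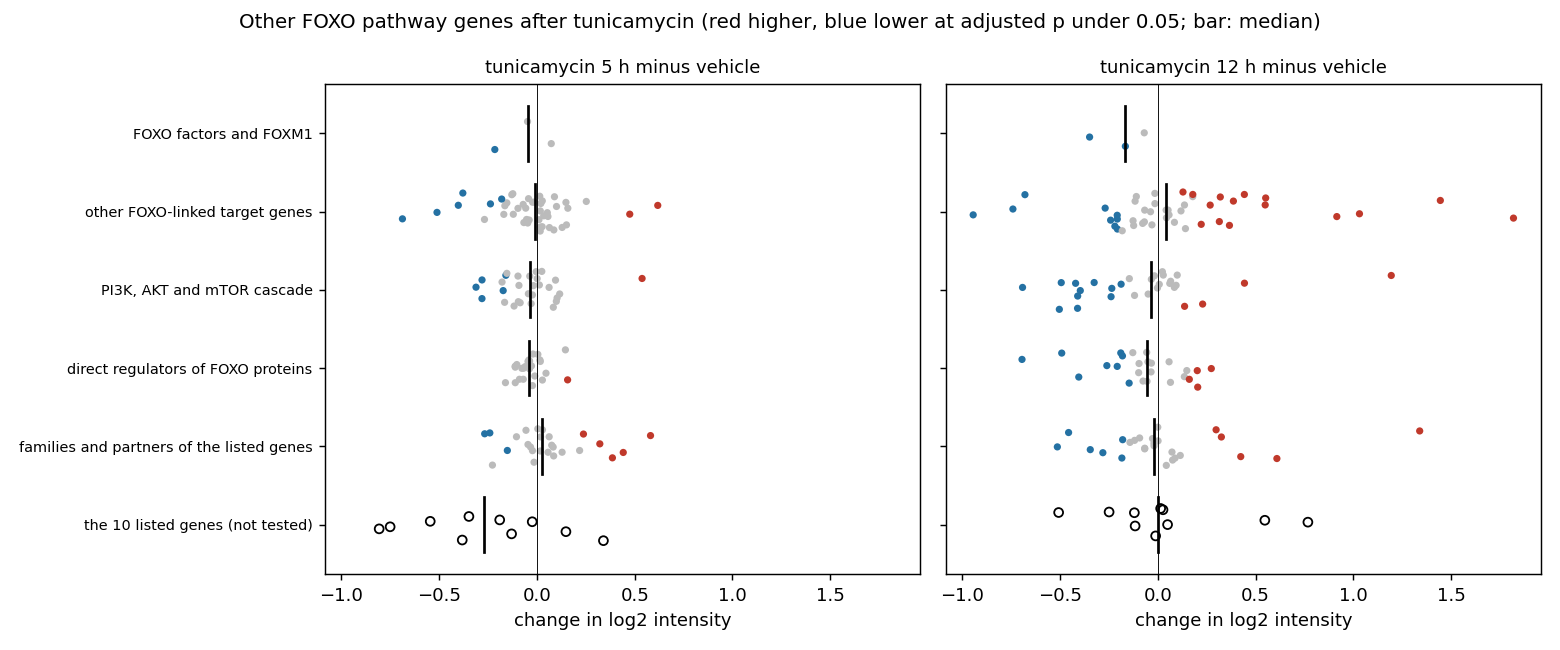
Change in log2 intensity after 5 h (left) and 12 h (right) of tunicamycin for the 128 other pathway genes, 1 point per gene by list, with genes that rose in red and genes that fell in blue at an adjusted p under 0.05, and for the 10 genes described here (open circles, not tested); vertical bars are list medians. At 12 h Gadd45a is the point farthest to the right, at 1.82.

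At 12 h 28 of the 128 genes rose and 36 fell, 50% in all, where 27.7% of all genes changed (38 of the 128 without experiment 3). Of the 45 targets 15 rose and 9 fell. Gadd45a, which slows the cell cycle after damage, rose by 1.82 (adjusted p = 1.31e-11), Nfil3 by 1.45 (1.2e-12) and Btg1, an antiproliferative gene, by 1.03 (1.59e-09). Angpt2 (angiopoietin-2) fell by 0.94 (4.67e-06), Ccnd1 (cyclin D1) by 0.74 (5.7e-09) and Bcl2l11 by 0.68 (1.06e-05). Of the 29 cascade genes 4 rose and 11 fell. Ddit4 rose by 1.19 (1.01e-11), Inpp4b, a phosphoinositide phosphatase, by 0.44 (1.76e-05) and Gsk3b by 0.23 (0.000919). Pik3cd fell by 0.69 (4.22e-08), Igf1r, the IGF-1 receptor, by 0.50 (3.8e-06) and Pik3r2 by 0.49 (4.45e-05). The call of Gsk3b was lost with an experiment left out (0.0615).

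Of the 25 FOXO regulators 4 rose and 8 fell at 12 h. The deacetylase Sirt1 rose by 0.27 (adjusted p = 0.00667), the ubiquitin ligase Mdm2 by 0.20 (0.00593) and the acetyltransferase Crebbp by 0.20 (0.00584). Each of these calls was lost with an experiment left out (up to 0.0954, 0.0837 and 0.0941). Skp2, a ubiquitin ligase subunit that targets FOXO1, fell by 0.69 (1.08e-08), the methyltransferase Setd7 by 0.49 (1.16e-05) and the 14-3-3 gene Ywhah by 0.40 (4.34e-06). Of the 26 relatives and partners 5 rose and 6 fell. Sesn2 led with 1.34, followed by the GATOR subunit genes Mios (0.61, 9.56e-07) and Nprl3 (0.42, 3.01e-05). Klhl21 (-0.51, 3.83e-06), Depdc5, also a GATOR subunit gene (-0.46, 1.1e-05), and Arrdc1 fell most.

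Doxycycline alone raised 8 of the 128 and lowered 12, 15.6% in all, where 10.7% of all genes changed; the split was 15 and 12 with quantile normalization repeated and 6 and 17 with array medians set equal. The count was 34 with array weights and 8, 13 and 8 without experiments 1, 2 and 3. Mxd4, a MYC antagonist, rose by 0.54 (adjusted p = 0.000225), Gadd45b by 0.35 (0.00423) and Ppargc1a by 0.26 (0.00415). Erbb3, a receptor of the EGF receptor family, fell by 0.58 (1.11e-05), Angpt2 by 0.57 (0.00356) and Trim63, a muscle ubiquitin ligase, by 0.57 (0.000185). The calls of Gadd45b, Ppargc1a and Angpt2 were each lost with an experiment left out (up to 0.103, 0.0898 and 0.117). Of the cascade genes Phlpp1 fell by 0.40 (0.000147), Inpp4b by 0.33 (0.00159) and Pik3r3 by 0.21 (0.0252, and up to 0.0975 without any 1 of 5 arrays). The call of Inpp4b was lost with an experiment left out (0.0622). Pik3r1 and Pik3cb rose by 0.16 (0.0332) and 0.15 (0.0396), and both calls were lost with array medians set equal and without any 1 of the 6 arrays compared (up to 0.141 and 0.137). Cdk2 fell by 0.50 (9.38e-07), Skp2 by 0.20 (0.0209; up to 0.0822 without any 1 of 4 arrays), Klhl21 by 0.26 (0.0129; 0.065 without the vehicle array of experiment 1) and the BCL6 corepressor gene Bcor by 0.20 (0.0207; up to 0.131 without any 1 of 3 arrays).

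Irs1, the substrate closest to Irs2, was higher with doxycycline at each time. Its level was 9.13, 9.14 and 9.08 in vehicle and 9.43, 9.43 and 9.53 with doxycycline alone. At 12 h of tunicamycin it was 8.62, 8.83 and 8.66 without doxycycline and 9.02, 9.31 and 9.20 with it. The rises with doxycycline were 0.35, 0.37 and 0.47 at 0, 5 and 12 h (adjusted p = 0.00316, 0.00152 and 0.0001), each in 3 of 3 experiments. The 0 h call was lost without experiment 3 (0.30, adjusted p = 0.167). Tunicamycin for 12 h lowered Irs1 by 0.41 (adjusted p = 0.000164). With the mean of the gene's probe sets in place of the brightest, the 0 h rise was 0.21 (adjusted p = 0.0315) and the 12 h change -0.24 (0.00609). For Irs2 the corresponding doxycycline differences were 0.14, 0.12 and 0.12, each ± 0.0647 (SE), with overlapping arrays at each time. Over all genes, the response to tunicamycin itself differed with doxycycline in 0.0301% at 5 h and 1.84% at 12 h by limma's interaction term.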

How the data were processed

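Expression was measured on 18 one-colour Affymetrix arrays. Values for 35557 probe sets were deposited by the authors as log2 intensities, made with RMA, with Partek also named, per the submitters' processing notes; versions, settings and a genome build are not given in the sources used here. For dim probe sets RMA values compress fold changes. The values were used as deposited and no detection calls were used. Of the probe sets 21789 carried 1 gene symbol and 1621 several; the brightest of each gene was kept (19938 genes).

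limma (version 3.58.1, R 4.3.3) was fitted to the 6 group means over all arrays (residual degrees of freedom 12, prior 5.99). Adjusted p-values are Benjamini-Hochberg values over all genes, called under 0.05. The p-values rest on the spread between arrays within a group, pooled over the 6 groups and without pairing by experiment. The 3 arrays of a group come from 3 independent experiments in 1 line. The procedure was tested on simulated data. Tests of doxycycline in the 10 genes, planned at first, were dropped, since the groups compared also chose the genes. The 10 genes, the 5 lists and the motifs were chosen with earlier results of these data known. Named list genes were up to 3 per list and direction with the largest change past the threshold, the nearest relatives of the 10 genes, and Cebpb and Ddit3. The series' design text names 3 independent experiments that each held all 6 conditions, and the replicate numbers in the titles were read as those experiments, which no label states outright. Under that reading, deviations from group means correlated with a median r of 0.04 over the 45 pairs of arrays of 1 experiment (-0.50 to 0.50) and -0.01 over the 90 other pairs. The 29 alternatives were a replicate block, only the compared groups, dim genes left out, 2 renormalizations, a variance trend, array weights, mean probe sets, and leaving out each of 18 arrays and 3 experiments.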

Additional observations from a re-analysis of the deposited data

Results flagged for a closer look

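In Bcl6, Ccng2, Pik3ip1, Sesn3 and Txnip all 3 experiments moved one way under one condition and the other way under a second. None of these differences was tested. How often this occurs over all genes was not counted, so nothing is read from the number of genes listed. Bcl6 changed from its own 0 h group by -0.35 at 5 h and 0.55 at 12 h of tunicamycin, and with doxycycline by -0.31 and 0.29. Ccng2 with doxycycline changed by -0.91 at 5 h and 0.17 at 12 h. Pik3ip1 changed over 5 h of tunicamycin by -0.19 without doxycycline and by 0.02 with it, where the 12 h change was -0.14; from 5 to 12 h it changed by 0.07 without and -0.16 with doxycycline. The doxycycline difference in Sesn3 was 0.11 at 0 h and 0.09 at 5 h of tunicamycin but -0.07 at 12 h. In Txnip it was -0.16 at 0 h, 0.14 at 5 h and -0.20 at 12 h.

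Among the 128 other pathway genes 9 had a 12 h tunicamycin response that differed with doxycycline by the interaction term of the limma fit, where 1.84% of all genes did. The lists were chosen with earlier results known, so nothing is read from that share. None of the 29 alternative analyses was applied to the interaction term, so how stable these calls are is not known. The response with minus without doxycycline was lower for Arrdc3 (-0.61, adjusted p = 0.0171), Pink1 (-0.60, 0.00054), Erbb3 (-0.48, 0.00824), Pik3r1 (-0.45, 0.00114), Fbxo32 (-0.41, 0.0303) and Cdk2 (-0.31, 0.0147). It was higher for Sod2 (0.43, 0.00131), Igf1r (0.43, 0.0145) and Stk4 (0.37, 0.007). The change at 12 h was 0.33 without and -0.29 with doxycycline for Arrdc3, and in the same order Sod2 changed by -0.22 and 0.21, and Igf1r by -0.50 and -0.07. At 5 h 0 of the 128 passed this limma interaction test (19 at an unadjusted p under 0.05), where 0.0301% of all genes did.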

How the results depend on the processing

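With the replicate block (numbers read as a pairing by experiment) the other pathway genes gave 26 calls at 5 h and 66 at 12 h of tunicamycin and 24 with doxycycline. The medians of the 10 genes cannot change with the block, since each experiment held 1 array of each group. Nor can they change with only the groups compared, dim genes left out, a variance trend or mean probe sets, so these settings say nothing about them. With an array or experiment left out, the median doxycycline difference of the 10 genes ran from 0.0892 to 0.112 at 0 h, from 0.0747 to 0.131 at 5 h and from -0.0624 to 0.0114 at 12 h. The median tunicamycin change at 5 h was -0.30 with quantile normalization repeated, -0.32 with array medians set equal, -0.24 with array weights and -0.32 to -0.23 with an array or experiment left out. At 12 h, with an array or experiment left out, it ran from -0.037 (without experiment 2) to 0.023 (without experiment 1). The count of other pathway genes at 5 h was 15 with only the groups compared, 43 with array weights and 8 to 26 with an array or experiment left out. At 12 h it was 38 to 66, and with doxycycline 34 with array weights and 8 to 22 with an array or experiment left out. Leaving out an experiment leaves 2 arrays per group. Of the 64 tunicamycin calls at 12 h 35 held in all 29 alternatives, of the 24 at 5 h 8, and of the 20 with doxycycline 5. No gene named among many changed direction while called. The cause of these shifts was not tested. Array signal limits Foxo6 and Arrdc4, which lay below the receptor level in vehicle.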
